A study of Homo sapiens with 6 samples.

Results

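Kinetochore and spindle checkpoint genes encode the machinery that holds sister chromosomes on the mitotic spindle and delays their separation until every chromosome is attached. Their expression was examined in RH36 cells after transfection with a precursor of miR-27a. The list held 36 genes, taken by name with no threshold on a measured value, and 35 of them had a probe under their name on the array, out of 27328 gene names among the probes kept. These 35 genes had 51 probes, of which 49 were kept after filtering, out of 36469 probes kept in all. The 2 probes that were not kept belong to ESPL1, missing on 4 arrays, and CENPI, missing on 3 arrays, and each of these genes kept another probe. Missing here means that the spot was flagged as not found. By intensity the CENPI probe was well above background on all 6 arrays and the ESPL1 probe on 2. The remaining gene, ERCC6L, had no probe under its name and is described apart.

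RH36 is an embryonal rhabdomyosarcoma line, a muscle-lineage tumor line that lacks the PAX3/FOXO1 translocation. Cells of this line received either the miR-27a precursor (pre-miR-27a, 3 arrays) or a negative control precursor (pre-control, 3 arrays), and total RNA was labeled with Cy3 and hybridized to 1 array per sample. The labels give 10 nM of precursor for both groups and 48 h for the pre-miR-27a arrays, while the transfection protocol and the methods of the study give 24 h, and the methods give another reagent and a higher concentration. The time of the arrays was not settled here. The labels call the arrays biological replicates 1, 2 and 3 of each group. Each group was hybridized on its own slide, slide 1 for pre-control and slide 2 for pre-miR-27a, and an effect of the slide cannot be told apart from one of the transfection in any comparison here.

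At the kinetochore, the inner centromere proteins mark the site on the chromosome, the outer proteins grip the microtubules, and the checkpoint kinases and their partners sense an attachment that is missing or wrong. An unattached kinetochore keeps CDC20 from activating the anaphase-promoting complex (APC/C), the ubiquitin ligase that destroys securin and frees separase to cut cohesin. Many of these genes are transcribed mainly in G2 and mitosis, so their level in a bulk sample follows how many cells are dividing as well as how much RNA each cell makes. The arrays cannot tell these apart.

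Sequences of 2 kinds frame the comparison. The first is the microRNA that was raised, shown because its seed, the bases that pair with target transcripts, is what the precursor brings into the cell. The mature strand of the RefSeq annotation (GRCh38.p14, chr19:13836447-13836467, minus strand) is printed with its seed, bases 2 to 8, in capitals.
miR-27a-3p: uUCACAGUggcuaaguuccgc

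The second is a promoter element that several members share. The cell cycle genes homology region (CHR, here TTTGAA on either strand) and the CCAAT box (CCAAT on either strand) are elements known from genes expressed late in the cell cycle. RefSeq promoters were given for 29 of the 36 genes. In the bases upstream of the start, 13 of these 29 genes (44.8%) held TTTGAA, against 14.2% of 15843 genes. The CCAAT box was found in 21 of 29 (72.4%), against 40.2%. Both were found in 11 of 29 (37.9%), against 5.45%. The E2F core (TTTCGCGC or GGCGGGAA on either strand) was found in 3 of 29 (10.3%), against 5.35%. A match was within the last 50 bases for the CHR in 7 of 29 genes (24.1%), against 2.40% of all genes. These are matches of letters and not binding sites. The last 100 bases before the start are printed for 5 of these 7 genes, one or more from each of 4 roles, 5′ to 3′ in the direction of the gene, with both elements in capitals.
INCENP (chr11:62123911-62124010, plus strand): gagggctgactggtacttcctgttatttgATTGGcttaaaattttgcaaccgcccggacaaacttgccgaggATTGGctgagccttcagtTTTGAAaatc
CDCA8 (chr1:37692416-37692515, plus strand): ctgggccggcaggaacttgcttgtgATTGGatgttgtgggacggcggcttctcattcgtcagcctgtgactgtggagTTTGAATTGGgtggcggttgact
PLK1 (chr16:23678789-23678888, plus strand): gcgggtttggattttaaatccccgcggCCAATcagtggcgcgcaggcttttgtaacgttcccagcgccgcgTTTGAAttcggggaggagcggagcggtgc
BUB1B (chr15:40160969-40161068, plus strand): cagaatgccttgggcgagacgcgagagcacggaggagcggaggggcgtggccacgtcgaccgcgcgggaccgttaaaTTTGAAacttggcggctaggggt
CENPA (chr2:26785956-26786055, plus strand): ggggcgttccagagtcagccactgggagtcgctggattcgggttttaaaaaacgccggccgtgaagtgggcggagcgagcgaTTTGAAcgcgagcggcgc

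In CDCA8 the last CCAAT box overlaps the CHR. The first base of the CHR lay 10 bases before the start in INCENP, 18 in CENPA, 23 in CDCA8 and in BUB1B, and 29 in PLK1. ZWINT and ESPL1 are the other genes with such a match.

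The machinery was detected throughout. The brightest probe of each of the 35 genes was well above background on all 6 arrays, as were 48 of the 49 probes, and no spot was saturated. All values below are log2 of the background-subtracted intensity, quantile normalized across the 6 arrays, and a difference is the pre-miR-27a mean minus the pre-control mean on that scale. A gene is given by its brightest probe. An adjusted p is that of limma with Benjamini-Hochberg adjustment over all probes kept, and a gene is called where it is under 0.05. The replicate numbers pair the arrays, so limma was also fitted with the replicate number as a block, and that value is given where it changes a call. With 3 arrays a group, an exact two-sided permutation test of a single gene cannot go below 0.1, so no gene could pass it.

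After transfection with pre-miR-27a, 25 of the 35 genes had a higher mean and 10 a lower one, where 16914 of all 36469 probes were higher. The differences ran from −0.47 to 1.20. The median difference was 0.16, beside −0.02 over all probes. All probes include dim ones and several of some genes, while each listed gene is given by its brightest probe. The genes and that background were not matched for signal, here or in the shares of all probes below. Only DSN1 was called, 1 of 35 genes, where 7.83% of all probes were called. With the replicate block, INCENP, BUB1B, CASC5 and DSN1 were called higher, 4 of 35, where 7.24% of all probes were called higher, and PMF1 and FZR1 were called lower, 2 of 35, where 7.62% were called lower. Both counts lie within 2 genes of what those shares give for 35 genes. The arrays of the 2 groups did not overlap for 4 genes that were higher and 3 that were lower, where 14.8% of all probes were higher and 17.8% lower without overlap. Within same-numbered pairs, 20 of 35 genes were higher in all 3 pairs, where 29.4% of the probes measured on every array were. In the other direction, 5 of 35 were lower in all 3 pairs, where 33.6% of those probes were.

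**Figure D1:**
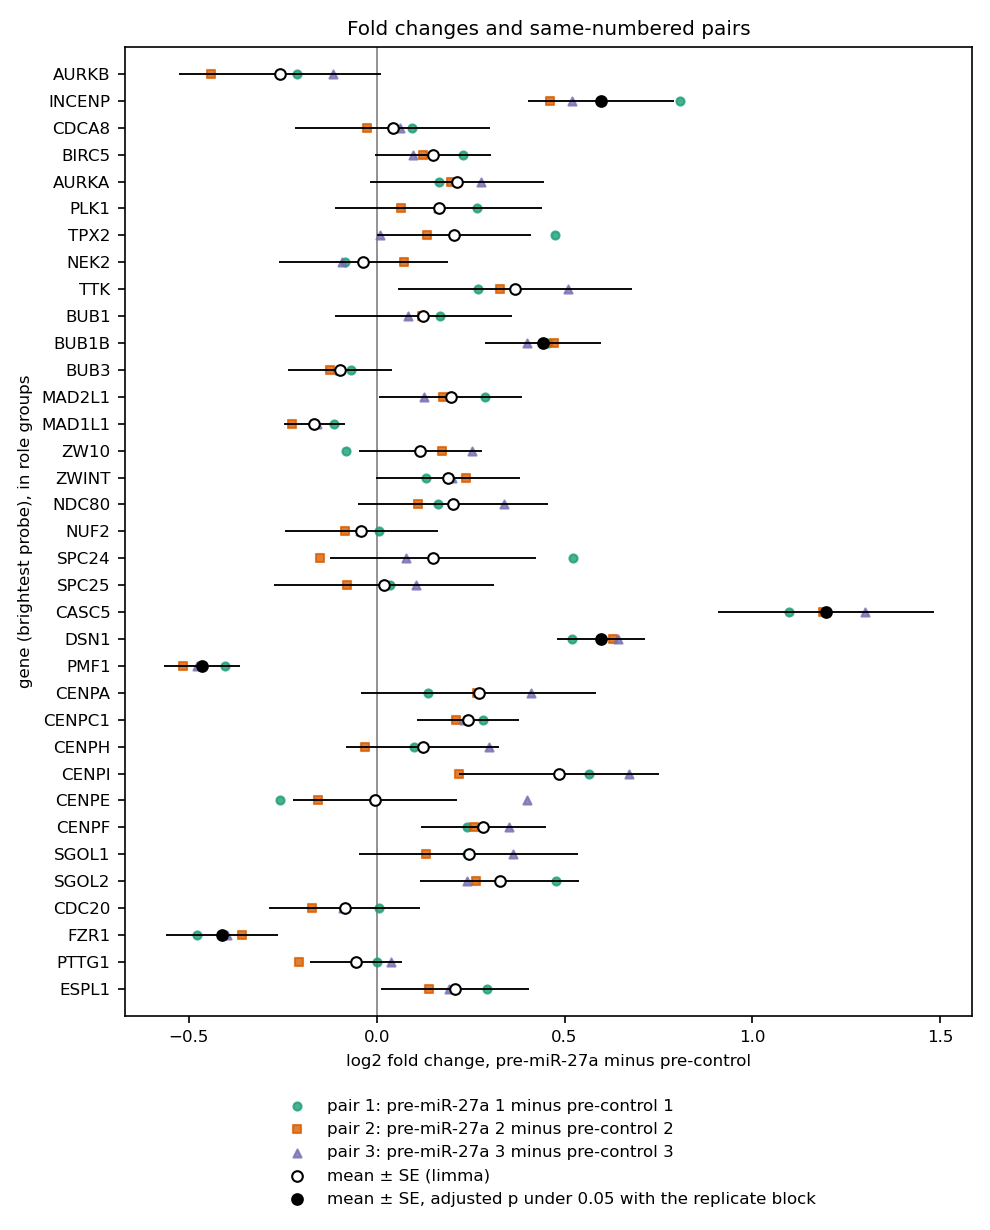
Difference in log2 signal between pre-miR-27a and pre-control for 35 genes, each by its brightest probe. Circles with bars are the mean ± SE from limma, filled where the adjusted p is under 0.05 with the replicate block, and the coloured points are the 3 same-numbered pairs. For 30 of 35 genes the 3 pairs span less than the whole bar, and CASC5, at 1.20, stands to the right of all others.

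The outer kinetochore, the part that binds microtubules, held the largest positive difference (CASC5), the largest negative difference (PMF1) and the only called gene (DSN1). It comprised 7 genes, 5 higher and 2 lower, with a median difference of 0.15.

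DSN1 is a subunit of the MIS12 complex, which joins the inner to the outer kinetochore. Its log2 signal was 13.14, 13.23 and 12.94 on pre-control arrays 1 to 3 and 13.66, 13.86 and 13.58 on pre-miR-27a arrays 1 to 3. Every pre-miR-27a array lay above every pre-control array. DSN1 rose by 0.60 ± 0.12 (SE, n = 3 and 3), or 1.51-fold, with an adjusted p of 0.042 in limma. Leaving out any 1 of the 6 arrays gave a limma adjusted p between 0.087 and 0.123, with a difference between 0.52 and 0.66. In those fits the probes called over the whole array fell from 2856 to between 0 and 1276. The loss of the call is therefore not particular to DSN1. DSN1 missed the threshold with 75th percentile scaling, where the adjusted p in limma was 0.071. It was called in 9 of 10 alternatives that keep all arrays.

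CASC5, now named KNL1, is the scaffold of the outer kinetochore onto which the checkpoint kinase BUB1 docks. Its signal was 8.55, 8.69 and 7.86 on the pre-control arrays and 9.65, 9.87 and 9.16 on the pre-miR-27a arrays. The groups did not overlap, and replicate 3 was lowest in each. The difference was 1.20 ± 0.29 (SE, n = 3 and 3), or 2.29-fold, with an adjusted p of 0.065 in limma and 0.033 with the replicate block. CASC5 was the only gene of several probes in which every probe gave a difference above 1. Its second probe, with 1 pre-control array missing, differed by 1.02 (limma adjusted p 0.059, and 0.044 with the block). The remaining probe was well above background on 0 of 3 pre-control arrays and on 3 of 3 pre-miR-27a arrays, and gave an adjusted p of 0.038 in limma. For that probe the means were 3.80 and 5.12, at least 1.37-fold higher in pre-miR-27a cells, where the bound sets the pre-miR-27a mean against the lowest signal well above background on each pre-control array.

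PMF1 is another MIS12 complex subunit, and it went the other way. Its signal was 11.81, 12.00 and 11.77 on the pre-control arrays and 11.40, 11.48 and 11.29 on the pre-miR-27a arrays. The groups did not overlap. PMF1 was lower by a difference of −0.47 ± 0.10 (SE, n = 3 and 3), which is 1.38-fold, with an adjusted p of 0.052 in limma and 0.035 with the block. The 2 subunits of this complex on the list differed in opposite directions.

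The 4 subunits of the NDC80 complex, the microtubule-binding rod of the kinetochore, were not called with or without the block. NDC80 differed by 0.20 (limma adjusted p 0.679), SPC24 by 0.15 (0.787), SPC25 by 0.02 (0.976) and NUF2 by −0.04 (0.930). A dimmer NDC80 probe differed by 0.33 (limma adjusted p 0.606, and 0.070 with the block). For NUF2 the arrays read 12.67, 12.85 and 12.29 in pre-control and 12.67, 12.76 and 12.24 in pre-miR-27a cells, so that each array came close to its same-numbered partner. Without the block, the 95% confidence interval of the NUF2 difference ran from −0.55 to 0.46, so by that fit a moderate change in either direction is within the error. The SE was 0.20 in that fit and 0.054 with the block, and the pairs differed by 0.0066, −0.084 and −0.046.

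The chromosomal passenger complex, which corrects faulty attachments through its kinase AURKB, comprised 4 genes, 3 higher and 1 lower, with a median difference of 0.10. INCENP is its scaffold subunit. Its signal was 12.826, 12.862 and 12.484 on the pre-control arrays and 13.633, 13.322 and 13.004 on the pre-miR-27a arrays. All 3 pre-miR-27a arrays were above all 3 pre-control arrays. The difference was 0.60 ± 0.19 (SE, n = 3 and 3), or 1.51-fold, with an adjusted p of 0.133 in limma and 0.043 with the block.

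AURKB itself read 11.38, 11.90 and 11.00 on the pre-control arrays and 11.17, 11.46 and 10.88 on the pre-miR-27a arrays. The groups overlapped, though each pre-miR-27a array was below its same-numbered partner, and the difference was −0.26 ± 0.27 (limma adjusted p 0.617). BIRC5 (survivin), the subunit that brings the complex to centromeres, was measured by a probe spotted 10 times per array and differed by 0.15 ± 0.15 (0.610). CDCA8 (borealin) differed by 0.04 ± 0.26 (0.943).

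The mitotic kinases and spindle assembly genes AURKA, PLK1, TPX2 and NEK2 gave 3 differences above 0 and 1 below, with a median of 0.19 and no call. AURKA, the centrosome kinase that TPX2 activates, differed by 0.21 ± 0.23 (limma adjusted p 0.630), and TPX2 by 0.21 ± 0.21 (0.599). Both were higher in all 3 pairs. PLK1, a kinase with roles from mitotic entry to exit, differed by 0.16 ± 0.28 by its brightest probe (0.767) and by −0.03 by its other probe. NEK2, a kinase of centrosome separation, differed by −0.04 ± 0.23 by its brightest probe (0.945) and by 0.39 by a dimmer one, whose limma adjusted p was 0.492, or 0.042 with the block.

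The spindle checkpoint genes comprised 8 genes, 6 higher and 2 lower, with a median of 0.16. BUB1B encodes BUBR1, part of the complex that holds CDC20 inactive. Its signal was 11.59, 11.58 and 11.27 on the pre-control arrays and 12.04, 12.05 and 11.67 on the pre-miR-27a arrays. The lowest pre-miR-27a array was above the highest pre-control array. The difference was 0.44 ± 0.15 (SE, n = 3 and 3), or 1.36-fold, with an adjusted p of 0.151 in limma and 0.035 with the block. The 3 pairs differed by 0.46, 0.47 and 0.40.

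TTK, also called MPS1, is the kinase that starts checkpoint signaling. It read 11.19, 10.84 and 10.20 on the pre-control arrays and 11.46, 11.17 and 10.71 on the pre-miR-27a arrays. The spread among replicates was wider than the difference of 0.37 ± 0.31 (limma adjusted p 0.528), and the groups overlapped, although each pair was higher.

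MAD1L1, which recruits MAD2 to unattached kinetochores, had signals of 11.14, 11.08 and 11.15 on the pre-control arrays and 11.03, 10.85 and 10.99 on the pre-miR-27a arrays. It was lower without overlap, by a small difference of −0.17 ± 0.08 that did not pass (limma adjusted p 0.279). Of the other checkpoint genes, BUB1 differed by 0.12, MAD2L1 by 0.20, ZWINT by 0.19 and ZW10 by 0.12, with limma adjusted p from 0.588 (MAD2L1) to 0.796 (BUB1). BUB1 is the kinase docked on CASC5, MAD2L1 encodes MAD2, and ZWINT and ZW10 help to bring further checkpoint proteins to the kinetochore.

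BUB3, the adaptor that carries BUB1 and BUBR1 to the kinetochore, had 4 probes that disagreed. Its brightest probe read 14.42, 14.62 and 14.25 on the pre-control arrays and 14.35, 14.50 and 14.15 on the pre-miR-27a arrays, a difference of −0.10 ± 0.14 (limma adjusted p 0.724). The other probes differed by −0.03, 0.68 and 0.18. The probe at 0.68 had a limma adjusted p of 0.061, or 0.040 with the block. It lies on hg18 at chr10:124914167-124914226, while the brightest probe spans chr10:124912295-124914572, and the files assign them to different BUB3 transcripts (NM_004725 and NM_001007793). No single direction can be given for BUB3.

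**Figure D2:**
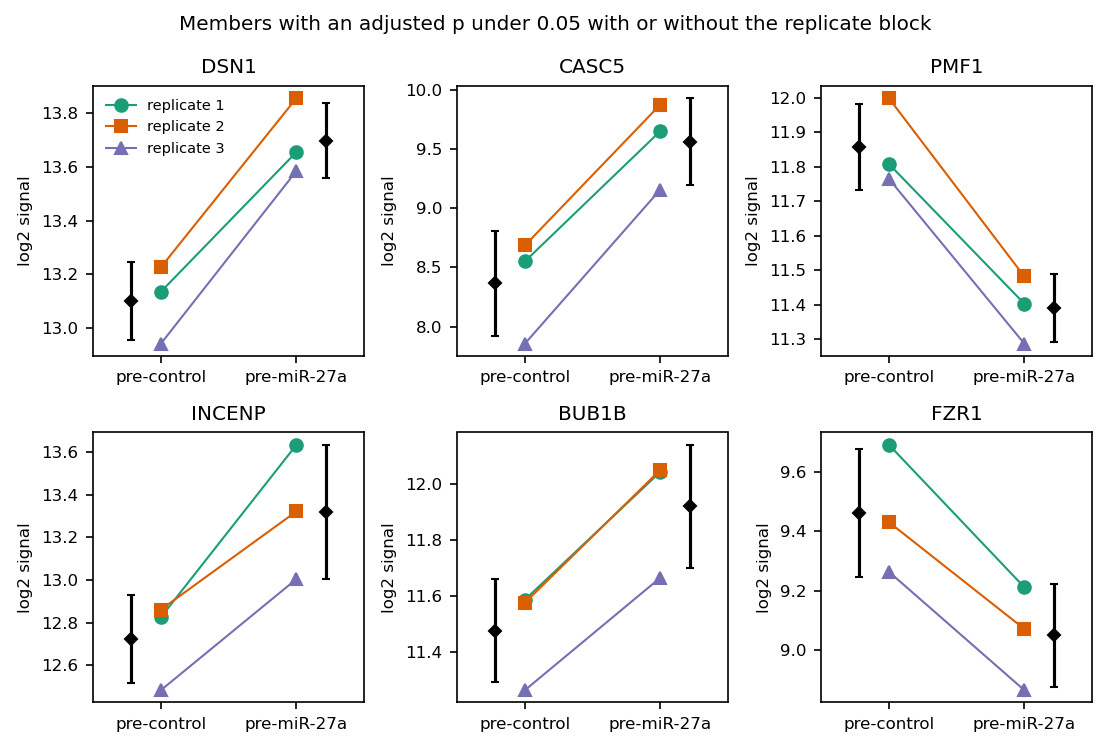
Log2 signal on each array for the 6 genes with an adjusted p under 0.05 in limma with or without the replicate block. Lines join arrays with the same replicate number, and diamonds with bars are the group mean ± SD (n = 3), on a separate scale for each gene that does not start at 0. The lines of a gene run in one direction, and replicate 3 is the lowest array of each group in all 6 genes.

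The centromere proteins, which build the inner kinetochore or attach to its surface, comprised 6 genes, 5 higher and 1 lower, with a median of 0.26 and no call. CENPI, an inner kinetochore protein, had the largest difference of this group. It read 6.52, 7.20 and 6.28 on the pre-control arrays and 7.09, 7.42 and 6.95 on the pre-miR-27a arrays. The groups overlapped, and the difference was 0.49 ± 0.27 (limma adjusted p 0.329, and 0.074 with the block). With normexp background correction the difference was 0.16.

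CENPF, a large protein of the outer corona that accumulates in G2, read 15.31, 15.19 and 14.83 on the pre-control arrays and 15.55, 15.45 and 15.18 on the pre-miR-27a arrays. Each pair was higher but the groups overlapped, at 0.28 ± 0.17 (limma adjusted p 0.361) by this probe, or 0.12 with 75th percentile scaling, and 0.41 by the other. CENPA, the histone H3 variant that defines the centromere, read 11.43, 11.10 and 10.43 on the pre-control arrays and 11.57, 11.36 and 10.84 on the pre-miR-27a arrays. Its difference of 0.27 ± 0.31 (0.655) was no larger than the spread within a group. CENPC1, which links CENPA chromatin to the outer kinetochore, differed by 0.24 ± 0.14 (0.339) and, by its second probe, by 0.41 without overlap (0.093). CENPH, a partner of CENPI, differed by 0.12 (0.766). CENPE, a kinetochore motor measured by 10 spots per array, differed by −0.0050 (0.993), and its pairs pointed in different directions.

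SGOL1 and SGOL2, the shugoshins that shield centromeric cohesin from early removal, were both higher in all 3 pairs. SGOL1 read 9.78, 10.13 and 9.20 on the pre-control arrays and 10.02, 10.26 and 9.57 on the pre-miR-27a arrays, a difference of 0.24 ± 0.29 (limma adjusted p 0.664). A dimmer SGOL1 probe with 1 array missing differed by −0.10. SGOL2 read 10.68, 10.83 and 10.33 on the pre-control arrays and 11.16, 11.09 and 10.57 on the pre-miR-27a arrays, a difference of 0.33 ± 0.21 (0.408). In both genes the groups overlapped. ERCC6L, the translocase of stretched centromeric DNA, was matched only through the accession of a probe that the files list as FLJ20105 without naming ERCC6L, so it is in none of the counts. That probe differed by 0.11 ± 0.23 (0.814).

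The genes that act at anaphase had the only role group with a median below 0, at −0.07 over 4 genes, 1 higher and 3 lower. FZR1 encodes CDH1, the APC/C activator of late mitosis and G1. Its brightest probe read 9.69, 9.43 and 9.26 on the pre-control arrays and 9.21, 9.07 and 8.87 on the pre-miR-27a arrays. The groups did not overlap. The difference was −0.41 ± 0.15 (SE, n = 3 and 3), which is 1.33-fold lower, with an adjusted p of 0.165 in limma and 0.037 with the block. Its other 3 probes differed by 0.10, −0.23 and −0.23, none called with or without the block, and the mean over all its probes gave −0.19, so the call with the block belongs to a single probe of 4.

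CDC20, the activator that the checkpoint restrains, read 12.27, 12.06 and 11.78 on the pre-control arrays and 12.28, 11.88 and 11.69 on the pre-miR-27a arrays. The difference of −0.09 ± 0.20 (limma adjusted p 0.840) was smaller than the spread among replicates. PTTG1, which encodes securin, read 14.68, 14.71 and 14.40 on the pre-control arrays and 14.68, 14.50 and 14.44 on the pre-miR-27a arrays, a difference of −0.06 ± 0.12 (0.826). ESPL1, which encodes separase, differed by 0.21 ± 0.20 (0.578).

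**Figure D3:**
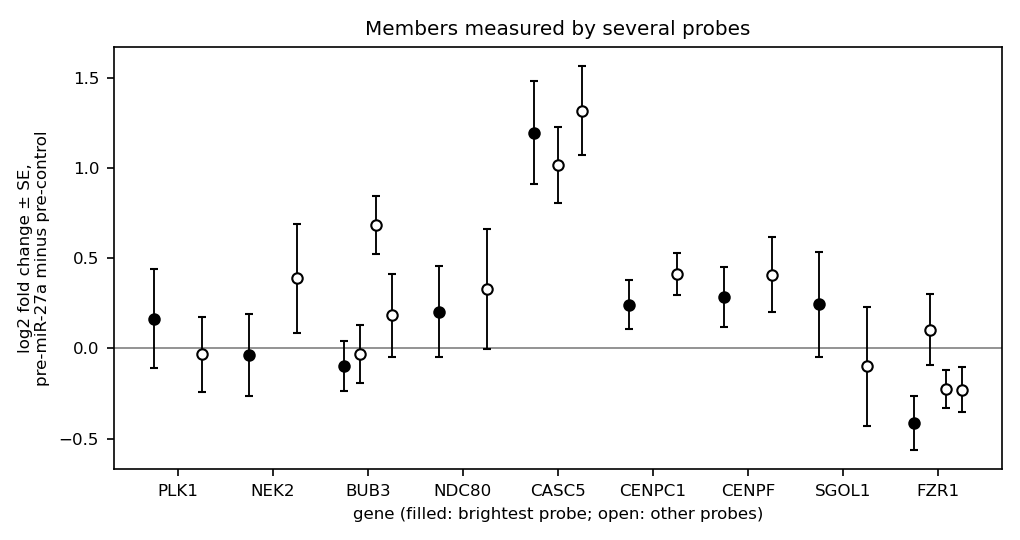
Difference in log2 signal (mean ± SE from limma, n = 3 arrays a group, fewer where an array is missing) for each kept probe of the 9 genes with several probes, filled for the brightest. The 3 CASC5 probes lie between 1.02 and 1.32, while the probes of BUB3, NEK2, PLK1, SGOL1 and FZR1 lie on both sides of 0.

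The genes varied together from replicate to replicate. In 32 of 35 genes replicate 3 was the lowest array in the pre-control group and also in the pre-miR-27a group, where 20.0% of the probes measured on every array showed this. The exceptions were MAD2L1, MAD1L1 and SPC24. Replicate 3 lay below the mean of replicates 1 and 2 by a median of −0.44 over the genes in the pre-control group and −0.43 in the pre-miR-27a group, beside −0.02 and −0.02 over all probes. This is larger in size than the median difference of 0.16 between the groups. The pattern is a description of 2 arrays and has no test, and what the same-numbered cultures shared is not given in the labels beyond the number, which is also the position on each slide.

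**Figure D4:**
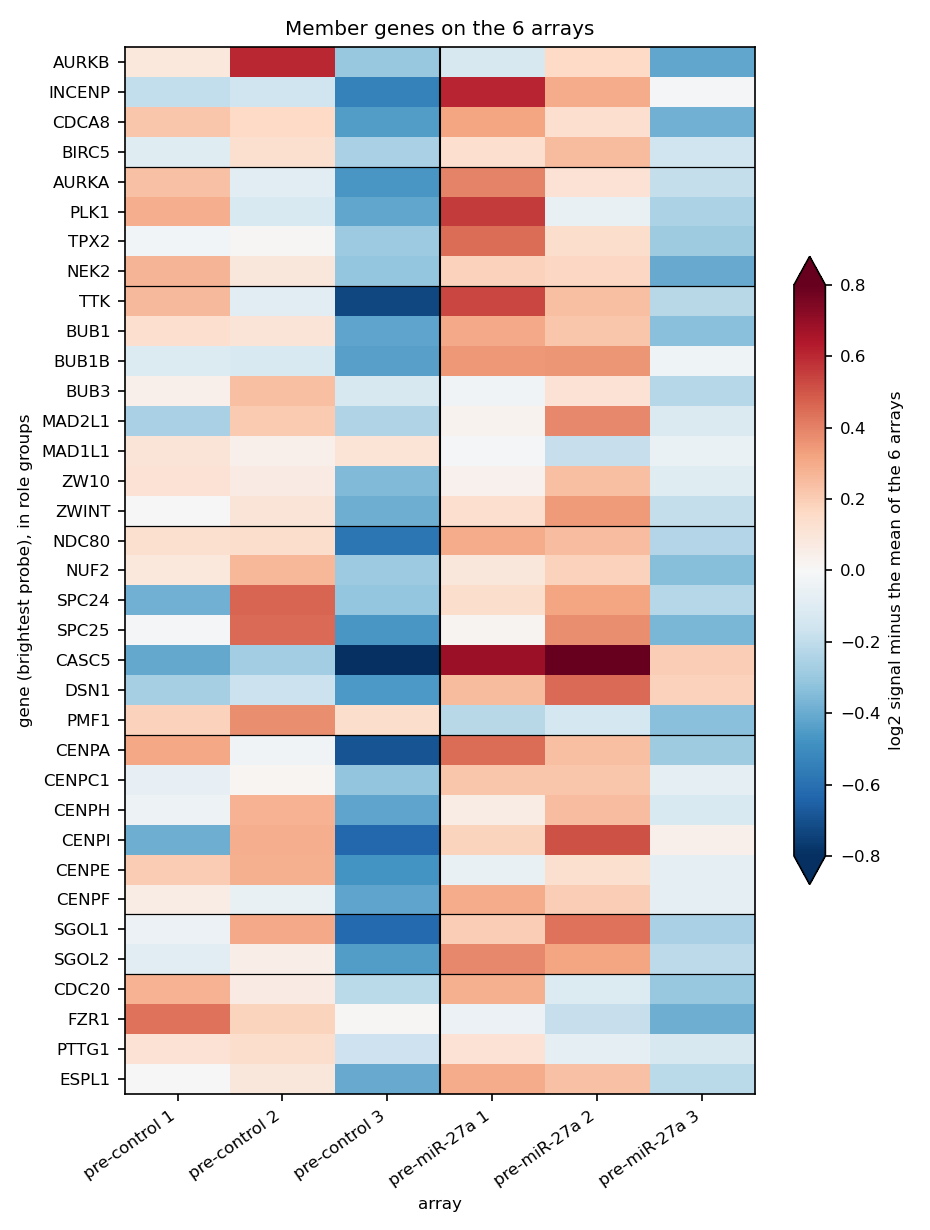
Log2 signal of 35 genes on the 6 arrays, as the difference from each gene's mean over the arrays, on a color scale from −0.8 to 0.8, with lines between role groups in the order of passenger complex, mitotic kinases, checkpoint, outer kinetochore, centromere proteins, shugoshins and anaphase genes. Mostly blue columns at replicate 3 of both groups go with 32 of 35 genes having their lowest value of each group there, though CASC5, DSN1 and CENPI at pre-miR-27a 3 and MAD1L1, PMF1 and FZR1 at pre-control 3 lie above their mean over the 6 arrays, and CASC5 stands out as higher in all 3 pre-miR-27a arrays.

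Removing the level shared by a pair changed the precision for these genes. The residual SD of the fit had a median of 0.28 over the 35 genes without the block and 0.066 with it, and was smaller with the block in 35 of 35. Over all probes it went from 0.18 to 0.096. The median difference of the genes also depended on single arrays, and was −0.0056 without pre-control replicate 3 and 0.32 without pre-miR-27a replicate 3. Leaving out both arrays of a number, chosen after the data had been seen, kept the pairs whole, and the median was 0.13, 0.21 and 0.18 without replicates 1, 2 and 3. With 2 arrays a group, no gene of the list was called with or without the block, and neither was any probe of the array (0 called, beside 6577 to 6963 at an unadjusted limma p under 0.05 without the block).

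A wider list of 65 genes of the same processes, all with a kept probe, gave 50 higher and 15 lower genes, where 16914 of all 36469 probes were higher. Its median difference was 0.12. None was called by its brightest probe in limma (0 of 65, beside 7.83% of all probes). At an unadjusted limma p under 0.05, 10 were higher and 1 lower, beside 4238 higher and 4799 lower of all 36469 probes. With the block, 7 were called higher and 0 lower, beside the 7.24% and 7.62% of all probes given above. Of these 7, 6 are named here, after their values were seen: ZWILCH, CDK1, TOP2A, STAG2, GTSE1 and ANAPC7. ZWILCH, a partner of ZW10 at the kinetochore, differed by 0.54 (limma adjusted p 0.107, and 0.036 with the block).

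By group, 17 of 25 other centromere and kinetochore genes were higher, with a median of 0.09, and 10 of 15 APC/C subunits and partners, with a median of 0.04. Higher values were also found for 9 of 10 cohesin genes, with a median of 0.13, and 8 of 9 other spindle and checkpoint genes, with a median of 0.17. Cohesin is the ring that separase opens. Dimmer probes of 2 cohesin genes were called in limma, NIPBL at 1.37 and STAG2 at 1.08 (both with an adjusted p of 0.018), while the brightest probe differed by 0.23 for NIPBL (0.218, and 0.080 with the block) and by 0.39 for STAG2 (0.059, and 0.045 with the block). These 2 were also picked out after their values were seen.

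All 6 of the mitotic cyclins, CDK1 and proliferation markers were higher in all 3 pairs, with a median of 0.33. TOP2A, a topoisomerase that peaks in G2 and mitosis, differed by 0.65 (limma adjusted p 0.171, and 0.033 with the block), and CDK1, the kinase that drives mitosis, by 0.46 (0.316, and 0.037 with the block). MKI67, the proliferation marker Ki-67, differed by 0.63 (0.185, and 0.052 with the block). The part that a different number of dividing cells may have in the values of the kinetochore genes was not tested.

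The muscle-lineage markers MYOD1, MYOG, DES, CHRNA1 and ACTC1 were well above background on all 6 arrays, and MYF5 had no kept probe. MYOD1 differed by −0.45 (limma adjusted p 0.079, and 0.036 with the block) and MYOG by −0.95 (0.140, and 0.033 with the block). DES differed by −0.01 (0.985), CHRNA1 by −0.15 (0.456) and ACTC1 by −0.25 (0.248), and none of these was called with or without the block. Of the markers of other cell types, PTPRC, PECAM1 and CDH1 were not well above background on any array. This CDH1 is an epithelial marker gene and not the CDH1 protein that FZR1 encodes. ALB, CDH5 and KRT19 were well above background on some arrays and CD3E on all 6, with a difference of −0.44 for CD3E (limma adjusted p 0.035). Between 69.9% and 73.9% of the 43376 spots were well above background on pre-control arrays, and between 74.1% and 78.0% on pre-miR-27a arrays. Spots not found, which were set to missing, went the other way, with 1559 to 1750 on slide 1 and 3487 to 4153 on slide 2. The local background of the spots had a median of 74.5 to 76 intensity units on slide 1 and 52.5 to 53 on slide 2, and the part of these values in the differences was not tested.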

How the data were processed

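The authors deposited, for each of 6 single-color Cy3 arrays, spot intensity values from Feature Extraction 10.5.1.1, background-subtracted within the array and not normalized between arrays, and a table of log2 values that the authors had quantile normalized. From the intensities, log2 values were quantile normalized here, spots with a found flag of 0 were set to missing, replicate spots were averaged, and probes missing on more than 1 of 6 arrays were removed, following the study's methods. limma 3.58.1 (R 4.3.3, the reader package data.table, version 1.17.8) compared the groups, with Benjamini-Hochberg adjustment over 36469 of 41000 probes and a threshold of 0.05. The methods name SAM, which was not run here; limma gives standard errors. The code was tested on simulated data.

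Same-numbered arrays deviated together from their group means (correlations of 0.40, 0.46 and 0.41 across 31717 probes), and the replicate numbers of the labels were treated as pairs. Between different numbers the correlations were −0.27 to −0.12. Deviations from a group mean cancel out within the group, so these negative values follow on average from the positive ones and add no support. The number is also the position on each slide. The comparison reported first has no block and so does not use these pairs.

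The genes, lists and tests were chosen with earlier results of these data known. Values in every array are given for genes with an adjusted p under 0.05 with or without the block, and for the 6 largest rises and 6 largest falls among the rest. Of the wider list, those called without the block were to be named. The values of 1 gene of that list are not reported here, though it is in the counts. Probe positions are on hg18, per the file headers, and sequences are from RefSeq on GRCh38.p14. A promoter match was sought in the bases before the start, and a gene with several promoters counts where any has a match. Precision is limited by the number of arrays. Alternatives were 75th percentile scaling, normexp (offset 50), other filters and flags, the deposited log2 values, the replicate block, a variance trend with robust estimation, other rules for genes with several probes, and leaving out arrays. No per-sample column was left unused (0).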

Additional observations from a re-analysis of the deposited data

How the results depend on the processing

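The number of listed genes called, 1 as reported, was 3 with normexp correction, with probes well above background, with the positive and significant flag and with the deposited log2 values, 2 with a variance trend and robust estimation, with the mean of all probes and with any probe called, 6 with the replicate block, and 0 without single arrays or replicate numbers. The median difference of 0.16 became 0.10 with 75th percentile scaling, which moved the median of all probes from −0.02 to −0.09, and lay between −0.0056 and 0.32 without single arrays and at 0.21 without replicate 2, with or without the block. The wider list went from 0 calls to 1 with 75th percentile scaling and with a variance trend and robust estimation, 4 with normexp correction, 7 with the replicate block, and 2 with probes well above background, the mean of all probes or any probe. Whole-array counts follow for some of these alternatives only. For the others, the counts of listed genes have no share of all probes beside them and cannot be read as a gain particular to these genes. Over the whole array 2856 probes were called (1440 higher, 1416 lower, 50.4% higher), against 3256 with 75th percentile scaling (1275 higher, 1981 lower, 39.2% higher), 5421 with the replicate block, 1783 genes with the mean of all probes (800 higher, 983 lower), and 0 to 1276 without single arrays, where 4 of the 6 fits called 0 and leaving out pre-control replicate 3 called 81 (7178 to 8636 at an unadjusted limma p under 0.05).

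CASC5 was called in 7 of 10 alternatives that keep all arrays, PMF1 in 6, DSN1 in 9, and INCENP, BUB1B and FZR1 in 1, the replicate block. BUB3 turned to 0.18 with the mean of all probes. Leaving out arrays was followed gene by gene only for the 18 listed genes given with values on every array. Of these, the ranges crossed 0 for CENPA (−0.0067 without pre-control replicate 3 to 0.49) and SGOL1 (−0.0056 without pre-control replicate 3 to 0.46). They also crossed 0 for CDC20 (−0.25 to 0.045), NUF2 (−0.20 to 0.12) and PTTG1 (−0.15 to 0.020, the latter without replicate 2, with and without the block). The signs of the remaining listed genes were not followed one by one. The median over all 35 was −0.0056 without pre-control replicate 3, a fit that leaves replicate 3 in 1 group only. It was 0.13, 0.21 and 0.18 without both arrays of replicates 1, 2 and 3. Among the 18 listed genes given with values on every array, the replicate block changed the call of CASC5, PMF1, INCENP, BUB1B and FZR1 and of no other by the brightest probe. The causes were not tested. Slide and transfection cannot be told apart under any alternative.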
